A study of Mus musculus with 48 samples.

Results

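The circadian clock genes Arntl, Clock, Per1, Per2, Per3, Cry1, Cry2, Dbp, Nr1d1 and Nr1d2 were read by 14 of the 24613 probes of the array. The members are all probes whose target symbol on the array is one of these 10 gene symbols, a rule that uses no measured value. The list of symbols was chosen with earlier results of these data known. Arntl, Per1, Per3, Cry1, Cry2, Dbp and Nr1d1 had a single probe each, Per2 and Nr1d2 had 2, and Clock had 3.

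Expression was measured in 3T3-L1 cells, an established line of mouse fibroblasts that can be turned into fat cells. Before differentiation the cells were transfected with 50 nM of a pool of siRNAs against PPARγ (PPARγ KD) or of a non-targeting pool (control siRNA). Confluent cells of both groups then received 0.5 mM IBMX, which raises cyclic AMP, with 0.25 µM of the glucocorticoid dexamethasone for 48 hours, and after that 5 µg/ml insulin with 1 µM rosiglitazone, a PPARγ agonist, for 48 hours. RNA was taken on day −2 and on each of days 0 to 6, and the days are counted from the start of rosiglitazone. With 3 biological replicates of each siRNA and day this gave 48 arrays of bulk RNA, 24 for each siRNA. Cells were harvested once a day, and the hour of harvest is not given in the sources used here, so that a difference between days and a rhythm within a day cannot be told apart in these values.

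In the circadian loop of mammalian cells, CLOCK and BMAL1 (the product of Arntl) bind as a pair to E-boxes and activate the Per, Cry, Nr1d and Dbp genes. PER and CRY proteins inhibit that pair, and the REV-ERB receptors encoded by Nr1d1 and Nr1d2 repress Arntl through elements they share with the ROR receptors. DBP is an output of the loop that activates further genes through D-boxes, and fat tissue has such a clock of its own.

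The promoter sequences at the start of the members' own genes were searched for short patterns of these elements. RefSeq promoters of GRCm38.p6, each 250 bases before and 50 bases after a transcript start, were found for 9 of the 10 members, Per2 being the other, in 13 windows. Both strands were searched, matches overlapped in 0 cases, and the motif is in capitals.
Per3, chr4:151044853-151044880, minus strand, D-box at −205: gacccgcgcgTTATGTAAggtactcggg
Per3, chr4:151044806-151044833, minus strand, D-box at −158: ccgcccgcggTTATGTAAcccccgccgt
Per1, chr11:69098773-69098798, plus strand, E-box at −166: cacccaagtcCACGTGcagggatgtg
Cry1, chr10:85185099-85185124, minus strand, E-box at −60: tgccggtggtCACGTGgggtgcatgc
Arntl, chr7:113207274-113207300, plus strand, ROR and REV-ERB element at −181: ggctttcctaTCGGTCActcgattggc
Arntl, chr7:113207531-113207557, plus strand, ROR and REV-ERB element at 30 after the later of its annotated starts: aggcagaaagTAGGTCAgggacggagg
The D-box TTANGTAA was in 2.32% of all 32851 promoter windows and, among the members, in that of Per3, which held it at both places shown. The E-box CACGTG was in 7.15% of all windows and in those of Cry1 and Per1. What is named ROR and REV-ERB element above is any match to the short pattern TNGGTCA, in which N can be any base. TCGGTCA and TAGGTCA therefore both count, and whether the receptors bind these matches was not tested. Arntl had a further match, TTGGTCA at −200, which is not shown above. The pattern TNGGTCA was in 11% of all windows and in those of Arntl, Cry2 and Per3. The cyclic AMP response element TGACGTCA, in 1.79% of all windows, and the glucocorticoid receptor core ACANNNTGT, in 6.85%, had no match in the members' windows.

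Over the arrays, 33.4% to 40.4% of probes passed a detection p of 0.01, which is called above background here, and the lowest shares, 33.4% to 35.4%, were those of the 16 arrays of replicate 3. Pparg itself (probe 6130632) was lower in the PPARγ KD in 24 of 24 array pairs matched by day and replicate (log2 difference −2.34, SE 0.04, adjusted p = 9.48e-34 from limma), from a mean log2 signal of 11.42 to 9.08. This probe was above background on all 24 KD arrays, so that transcript read by it remained in the KD. Probe 1990168 went from 8.44 to 5.93 and was above background on 24 control and 5 KD arrays. Probe 2680603 was above background on 8 control and 0 KD arrays. Adipocyte markers moved with the siRNA. Over all days 8 of 9 probes were lower in the KD at an adjusted p of at most 0.05 (limma) and 0 higher, while 13.1% of all probes differed. Their summed deposited signal per array ran from 9486 to 203810 under control siRNA and from 3608.2 to 40173 in the KD, where 4 of the 9 were above background on no array. Of 8 fibroblast and preadipocyte marker probes 4 were higher and 0 lower at the same threshold. None of the 7 macrophage, 4 endothelial and 3 skeletal muscle marker probes was above background on any array.

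Of the 14 clock probes, 6 were above background on all 48 arrays and another 4 on some. ARNTL (probe 3170463), CLOCK (3390075), PER2 (3390593), CRY2 (6290722), DBP (4200270) and NR1D2 (2360014) gave values throughout the course, and PER1 (3290315) did so on 44 arrays. NR1D1 (6590204) was above background on 20 arrays and PER3 (6980402) on 13. The CRY1 probe, the PER2 probe 3120204 and the CLOCK probes 1410070 and 2940292 were not well above background on any array, and no direction is given for them. All values below are log2 signals after background correction and scaling. Adjusted p-values came from limma and were Bonferroni-corrected for 24613 probes. A probe was called at an adjusted p of at most 0.05.

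**Figure D1:**
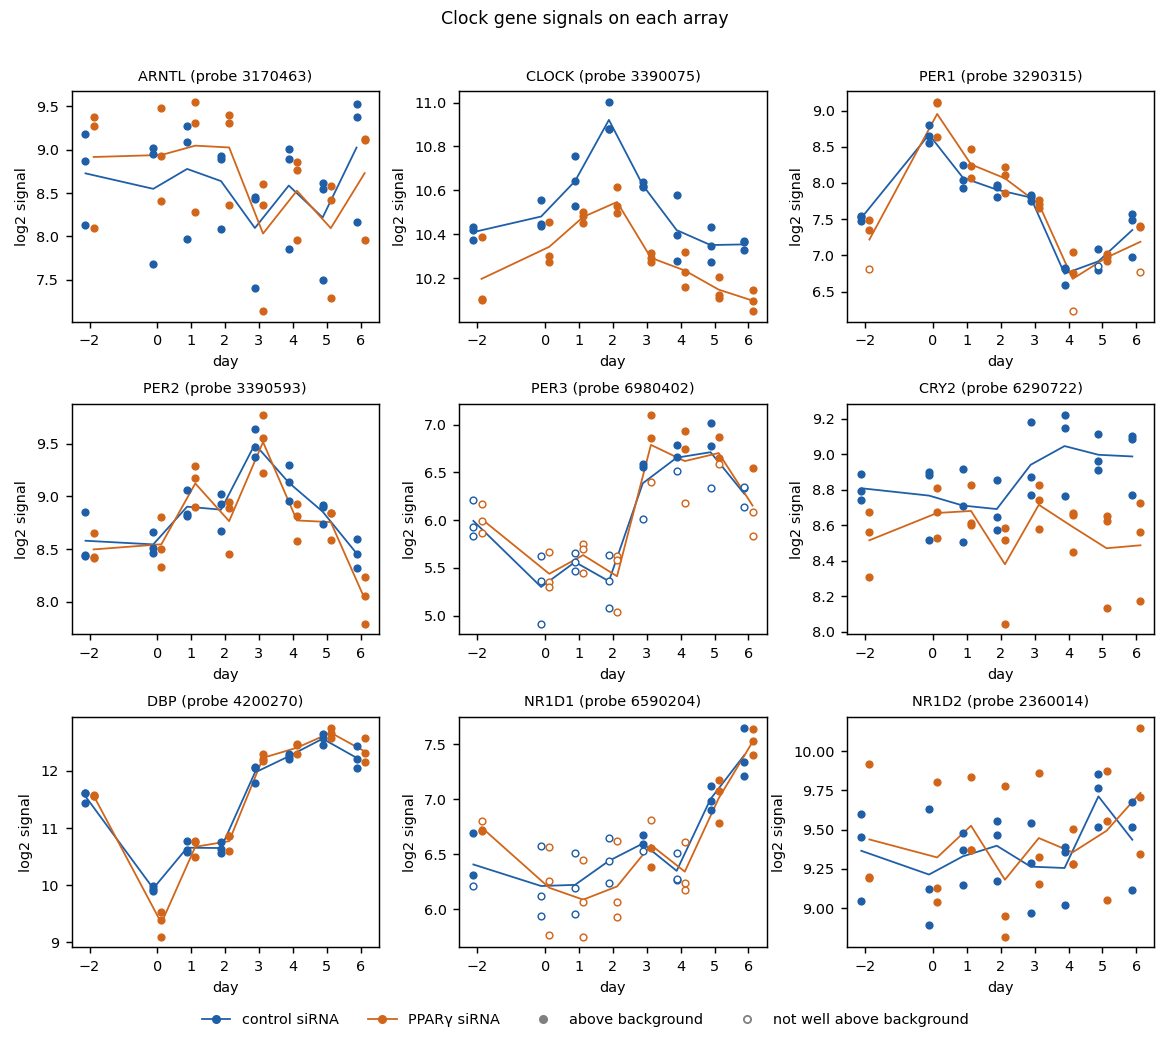
Log2 signal of the 9 clock genes with signal above background, by day of differentiation, for control siRNA (blue) and PPARγ siRNA (orange). Each point is 1 array, filled where the probe was above background, and lines join the means of 3 arrays. DBP fell to its lowest level on day 0 and PER1 rose to its highest on that day with both siRNAs.

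The widest range over time among the clock probes was that of the output factor Dbp, with its lowest and highest days the same under both siRNAs. Dbp fell on day 0, after IBMX and dexamethasone, and then climbed to its highest level on day 5, 6.14-fold above day 0 under control siRNA and 10.03-fold above it in the PPARγ KD. Per1 moved the other way, with its highest level on day 0 and its lowest on day 4. Per2 peaked on day 3, Per3 came above background from day 3, and Nr1d1 was highest on day 6. Under control siRNA 7 of the 14 probes were called for a change over time, beside 23.5% of all probes, and in the PPARγ KD 6 were, beside 16.5% of all probes.

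DBP signals on day −2 were 11.61, 11.44 and 11.62 under control siRNA and 11.58, 11.56 and 11.56 in the PPARγ KD. On day 0 they were 9.99, 9.91 and 9.93 under control siRNA and 9.10, 9.53 and 9.40 in the KD, below every array of the other days with either siRNA. By day 5 they had reached 12.65, 12.45 and 12.58 under control siRNA and 12.67, 12.76 and 12.58 in the KD. The fall from day −2 to day 0 was −1.61 (SE 0.11, adjusted p = 1.12e-12) under control siRNA and −2.23 (adjusted p = 2.35e-17) in the KD. The rise between day 0 and day 2 was 0.71 (adjusted p = 0.00361) under control siRNA and 1.43 (adjusted p = 4.33e-11) in the KD, and that from day 2 to day 6 was 1.58 (adjusted p = 2.09e-12) and 1.57 (adjusted p = 2.45e-12). All 3 replicates moved the same way in each of these 6 changes. The control rise of 0.71 lost its call without replicate 1 (adjusted p = 1), 2 (adjusted p = 0.129) or 3 (adjusted p = 1).

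Per1 encodes a period protein of the repressing limb and is known as an early responder to cyclic AMP and glucocorticoids. Its probe read 7.47, 7.54 and 7.54 under control siRNA on day −2 and 8.80, 8.65 and 8.55 on day 0. In the PPARγ KD the values were 7.35, 7.48 and 6.82 on day −2, the last not well above background, and 9.12, 9.10 and 8.64 on day 0. The arrays of the 2 days did not overlap with either siRNA. The rise was 1.15 (SE 0.16, adjusted p = 0.000362) under control siRNA and 1.74 (adjusted p = 1.11e-08) in the KD. It lost its call under control siRNA without replicate 1 (1.06, adjusted p = 1) and without replicate 2 (1.17, adjusted p = 0.0727). Mean PER1 signals then went down by day 4 to 6.75 ± 0.13 (SD, n = 3) under control siRNA and 6.67 ± 0.41 in the KD, where 1 of the 3 arrays was not well above background.

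Over the 3 phases of the protocol, DBP and PER1 were the members called between day −2 and day 0, beside 9.06% of all probes under control siRNA and 7.39% in the KD. From day 0 to day 2, DBP and CLOCK were called under control siRNA, beside 12.4% of all probes, and DBP in the KD, beside 5.06%. Between day 2 and day 6, CLOCK, DBP and NR1D1 were called under control siRNA, beside 12.2% of all probes, and CLOCK, PER2, DBP and NR1D1 in the KD, beside 4.85%. The median change of the 14 probes was −0.04, 0.04 and 0.07 in the 3 phases under control siRNA, against 0.08, 0.04 and −0.01 over all probes. In the KD it was 0.06, −0.05 and 0.22, against 0.13, −0.15 and 0.15. Quantile normalization moved the medians of all probes in the KD by −0.13, 0.14 and −0.15, and left the DBP changes there at −2.24, 1.41 and 1.64.

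Per2, the other period gene with a full course, was at 8.54 ± 0.10 on day 0, 9.49 ± 0.14 on day 3 and 8.46 ± 0.14 on day 6 under control siRNA (SD, n = 3 each). In the PPARγ KD it was at 8.55 ± 0.24, 9.51 ± 0.28 and 8.03 ± 0.23 on these days. The arrays of day 3 and day 6 did not overlap with either siRNA, and the change over time was called with both (adjusted p = 3.78e-07 under control siRNA and 1.70e-10 in the KD). Without replicate 3 the control call was lost.

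PER3 was not well above background on any array from day −2 to day 2. On days 3, 4 and 5 it was above background on 2 of 3 arrays with each siRNA, those of replicates 1 and 2, and on day 6 on 1 array of the KD. Under control siRNA the signals of replicates 1 and 2 were 6.59 and 6.56 on the first of these days, then 6.79 and 6.66, and then 7.02 and 6.78. In the KD the 6 values ran from 6.65 to 7.10. The change over time was called under both siRNAs (adjusted p = 5.99e-05 and 5.94e-05), and lost with both when replicate 1 or 2 was left out. Since the lower days were at background its size is not given.

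Nr1d1, which encodes REV-ERBα, was above background on 3 of 3 arrays with each siRNA on days 5 and 6, on 2 of 3 on days −2 and 3, and on 0 of 3 on days 0, 1, 2 and 4. On day 6 the signals were 7.65, 7.34 and 7.21 under control siRNA and 7.53, 7.64 and 7.40 in the PPARγ KD. Against day 2, where every array was not well above background, this was at least 1.72-fold higher under control siRNA (means 7.40 and 6.44, adjusted p = 0.00738) and at least 2.07-fold higher in the KD (7.52 and 6.21, adjusted p = 7.37e-06). These bounds set the mean of day 6 against the lowest signal above background on each day 2 array, or against the NR1D1 signal of that array if this was the higher value. The call under control siRNA was lost without replicate 1 (adjusted p = 1), without replicate 2 (adjusted p = 1) and with no replicate block (adjusted p = 0.640). The change over time was called with both siRNAs (adjusted p = 0.000140 and 1.79e-06), and neither call held without replicate 1 or without replicate 2.

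**Figure D2:**
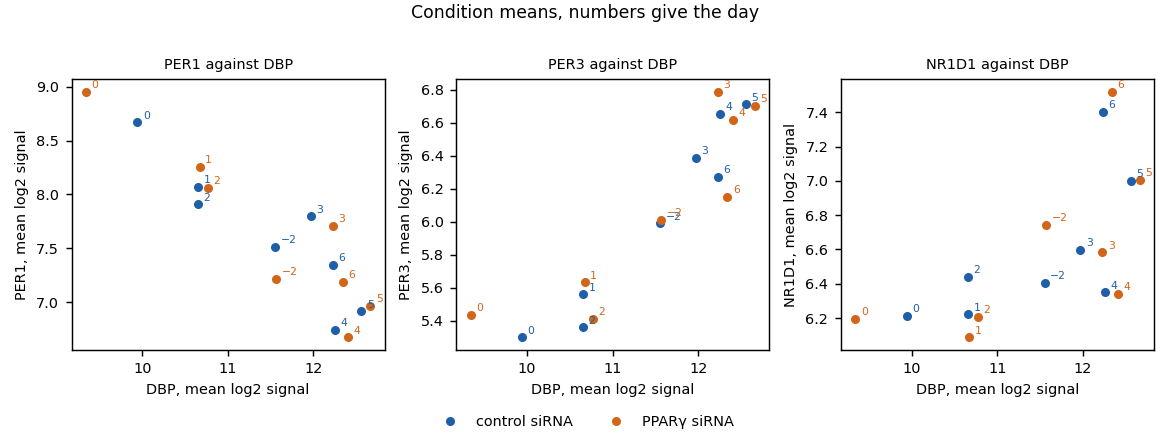
Mean log2 signals of PER1, PER3 and NR1D1 (vertical axes) against that of DBP (horizontal axis) in the 16 conditions, 8 days with each siRNA, with the day beside each point. PER1 lay higher where DBP was lower, and PER3 lay higher where DBP was higher.

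Set against each other over the 16 condition means, DBP and PER1 had a Pearson r of −0.92 and DBP and PER3 one of 0.92. The r of DBP with NR1D1 was 0.66, with PER2 0.12 and with ARNTL −0.52. Within the 8 control days the r with PER1 was −0.91 and that with PER3 0.97, and within the 8 KD days they were −0.92 and 0.88. The 16 means of 2 probes come from the same arrays, 13 of the 48 PER3 values were above background, and these values are descriptions with no test. Among 9216 other probes above background on at least 24 arrays, the course most like that of DBP was that of E030049G20RIK (r = 0.95), followed by COL1A1, DENND3, PRELP, FLOT1, MMP9, SLC5A7, ENPP5, SLC35C2 and PLEKHA4, with r down to 0.94.

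ARNTL had a course of its own, with a dip on day 3 and another on day 5. Between day 2 and day 3 it fell in all 3 replicates with both siRNAs, by means of −0.54 with control siRNA and −0.99 in the KD. It then went up from day 3 to day 4, down from day 4 to day 5 and up from day 5 to day 6 in 6 of 6 replicate courses at each step. The last step was 0.77, 0.98 and 0.67 under control siRNA and 0.70, 0.54 and 0.67 in the KD. Single steps were not tested, and the change over time was called with both siRNAs (adjusted p = 0.000466 and 9.36e-08). Under control siRNA that call was lost without replicate 1, 2 or 3, and with no replicate block it was lost under both siRNAs.

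The level of ARNTL differed between replicate 3 and the others. Its mean over the 16 arrays was 8.95 in replicate 1, 9.02 in replicate 2 and 7.89 in replicate 3. The NR1D2 probe 4540014 differed in the same direction, with means of 6.66, 6.74 and 5.32, and was above background on 11, 10 and 0 of 16 arrays. On replicates 1 and 2 it went from a highest value of 6.50 on day 0 to between 6.69 and 8.22 on day 6. The NR1D2 probe 2360014, in contrast, had its highest mean in replicate 3 (9.13, 9.37 and 9.71), and it was not called over time with either siRNA (adjusted p = 1 for both). The 2 probes of this gene, which encodes REV-ERBβ, thus disagreed between replicates, and what sets replicate 3 apart was not tested. Probe 4540014 was called over time in the KD in the fit without replicate 3, with no background correction and with an offset of 50.

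**Figure D3:**
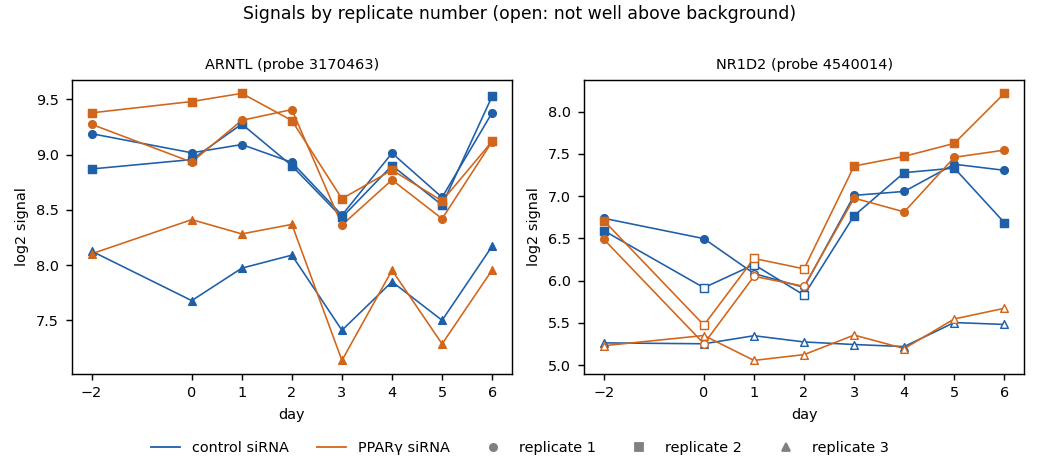
Log2 signals of ARNTL (left) and of the NR1D2 probe 4540014 (right) by day, with a line for each siRNA and replicate number, filled symbols being above background. The 6 ARNTL courses dipped together on days 3 and 5, and replicate 3 lay lower for ARNTL, at or below 8.41, and for the NR1D2 probe on each day but day 0 in the KD.

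The course most like that of ARNTL over the 16 condition means was that of AI314180 (r = 0.81). LOC100046841, THYN1, APOA1, EIF4G2, SPAST, RABEP1, TFDP2, HSP90AA1 and CCT5 followed, with r down to 0.71. The lowest r of the 9216 probes compared was that of TEF (−0.80, probe 3120397), which encodes a factor related to DBP.

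The comparison of the siRNAs asked which clock genes differed when PPARγ was knocked down. Over all days, 2 of the 14 clock probes differed between PPARγ KD and control siRNA, beside 13.1% of all probes, and both were lower in the KD. These were CRY2, a repressor of CLOCK and BMAL1, with a log2 difference of −0.31 (SE 0.04, adjusted p = 1.41e-05), and CLOCK, with −0.23 (SE 0.03, adjusted p = 5.82e-06). As fractions of the control level the CRY2 signal was 0.809-fold and the CLOCK signal 0.851-fold. In bulk RNA, fewer cells of a type and less RNA per cell cannot be told apart, and the part of the adipocyte marker difference in these values was not tested. The other members were not called, and the median difference of the 14 probes was 0.00, against −0.03 over all probes. Among the uncalled members, PER2 was lower in 18 of 24 pairs, with a difference of −0.10 and a 95% interval of −0.18 to −0.03. Its mean differences in replicates 1, 2 and 3 were −0.19, 0.07 and −0.20, so that replicate 2 went the other way. With Benjamini-Hochberg adjustment it was called, beside 30.9% of all probes. The interval of ARNTL, 0.00 to 0.17, lay just above 0. The intervals that spanned 0 were −0.06 to 0.10 for DBP, −0.11 to 0.12 for PER1, −0.08 to 0.21 for PER3, −0.10 to 0.12 for NR1D1 and −0.03 to 0.16 for NR1D2 (probe 2360014). All these intervals rest on the spread among arrays in the fit, not on that among the replicate means. The replicate means were −0.03, 0.21 and −0.12 for DBP and 0.05, −0.12 and 0.27 for NR1D2, partly outside the intervals. Those of PER3 and NR1D1 lay inside theirs.

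CRY2 signals on day −2 were 8.89, 8.74 and 8.80 under control siRNA and 8.67, 8.56 and 8.31 in the PPARγ KD. Day 0 gave 8.90, 8.88 and 8.52 against 8.53, 8.81 and 8.67, and day 1 gave 8.92, 8.71 and 8.50 against 8.60, 8.83 and 8.61. The siRNAs thus overlapped on days 0 and 1 and were apart on day −2. Day 2 gave 8.85, 8.65 and 8.57 under control siRNA and 8.58, 8.52 and 8.04 in the KD, and day 3 gave 9.18, 8.87 and 8.77 against 8.83, 8.74 and 8.58. From day 4 on every control array lay above every KD array of its day. Day 4 gave 9.15, 9.22 and 8.77 against 8.66, 8.67 and 8.45, day 5 gave 9.12, 8.96 and 8.91 against 8.65, 8.63 and 8.13, and day 6 gave 9.11, 9.09 and 8.77 against 8.56, 8.72 and 8.17. CRY2 was lower in the KD in 21 of 24 pairs of arrays, and its mean differences in replicates 1, 2 and 3 were −0.38, −0.21 and −0.33 (SD 0.09). Without replicate 1 the call was lost (−0.27, adjusted p = 0.184), as it was with no replicate block (adjusted p = 0.178).

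Over days 4 to 6, fitted on their own 18 arrays, CRY2 was the 1 member called, beside 5.31% of all probes. Its mean fell short of the control mean of 9.01, at 8.52, and the difference was −0.49 (SE 0.05, adjusted p = 0.00162) or 0.710-fold, and it was lower in 9 of 9 pairs. The call was lost with the replicate block set by day (adjusted p = 0.0534) and without replicate 1, 2 or 3 (differences of −0.53 to −0.46, adjusted p = 0.109 to 0.885). PER2 was lower in 9 of 9 pairs as well, by −0.30 (SE 0.05), and was not called (adjusted p = 0.276), nor was CLOCK (−0.21, adjusted p = 1) or ARNTL (−0.16, adjusted p = 1). The median of the 14 probes was −0.05, against −0.01 over all probes.

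CLOCK (probe 3390075) encodes the partner of BMAL1 in the activating pair. Its signals on day −2 were 10.42, 10.38 and 10.43 under control siRNA and 10.10, 10.11 and 10.39 in the KD. Day 0 gave 10.44, 10.56 and 10.45 against 10.27, 10.46 and 10.30, and day 1 gave 10.53, 10.64 and 10.76 against 10.48, 10.50 and 10.45. The values overlapped on days −2, 0 and 4, and were apart on days 1, 2, 3, 5 and 6. Day 2 gave 10.88, 11.00 and 10.88 against 10.50, 10.61 and 10.53, and day 3 gave 10.62, 10.64 and 10.62 against 10.27, 10.31 and 10.29. Day 4 gave 10.28, 10.58 and 10.40 against 10.23, 10.16 and 10.32, day 5 gave 10.27, 10.35 and 10.43 against 10.21, 10.11 and 10.12, and day 6 gave 10.36, 10.33 and 10.37 against 10.10, 10.15 and 10.05. CLOCK was lower in the KD in all 24 pairs, on average by −0.21, −0.26 and −0.24 in replicates 1, 2 and 3. Without replicate 2 the difference was −0.22 and was not called (adjusted p = 0.0589).

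CLOCK had its highest mean on day 2 in both groups. In the KD the rise from day 0 to day 2 was 0.20 and was not called. The rise from day 0 to day 2 was 0.44 (SE 0.08, adjusted p = 0.0347) under control siRNA, and the fall between day 2 and day 6 was −0.57 (adjusted p = 0.000202) under control siRNA and −0.45 (adjusted p = 0.0231) in the KD. The control rise was not called without background correction (adjusted p = 0.205), with an offset of 50 (adjusted p = 0.0930), with no replicate block (adjusted p = 0.255) or without replicate 1, 2 or 3. The control fall was not called without replicate 1, 2 or 3 either (differences of −0.60 to −0.51, adjusted p = 0.0729 to 0.856). The change over time was called under control siRNA (adjusted p = 0.000667), though not without replicate 1, 2 or 3, and not in the KD (adjusted p = 0.0923), and a difference between these courses was not called (adjusted p = 1).

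On single days 0 of the 14 clock probes were called by limma, while 0.861% of all probes were called on day −2, 3.03% on day 0, 2.91% on day 1, 8.92% on day 2, 2.76% on day 3, 2.4% on day 4, 3.24% on day 5 and 3.88% on day 6. At an unadjusted p under 0.05 between 2 and 6 members passed on each day, beside 13% (day −2) to 34.1% (day 2) of all probes. With Benjamini-Hochberg adjustment between 0 and 3 did, beside 4.28% (day −2) to 24.2% (day 2) of all probes. DBP on day 0 came nearest, at −0.60 in the PPARγ KD (SE 0.11, adjusted p = 0.0668), with differences of −0.89, −0.38 and −0.54 in the 3 replicates and no overlap of the arrays. It was called on that day with quantile normalization and when dim probes were left out. On the other 7 days DBP differed by between 0.01 and 0.26.

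**Figure D4:**
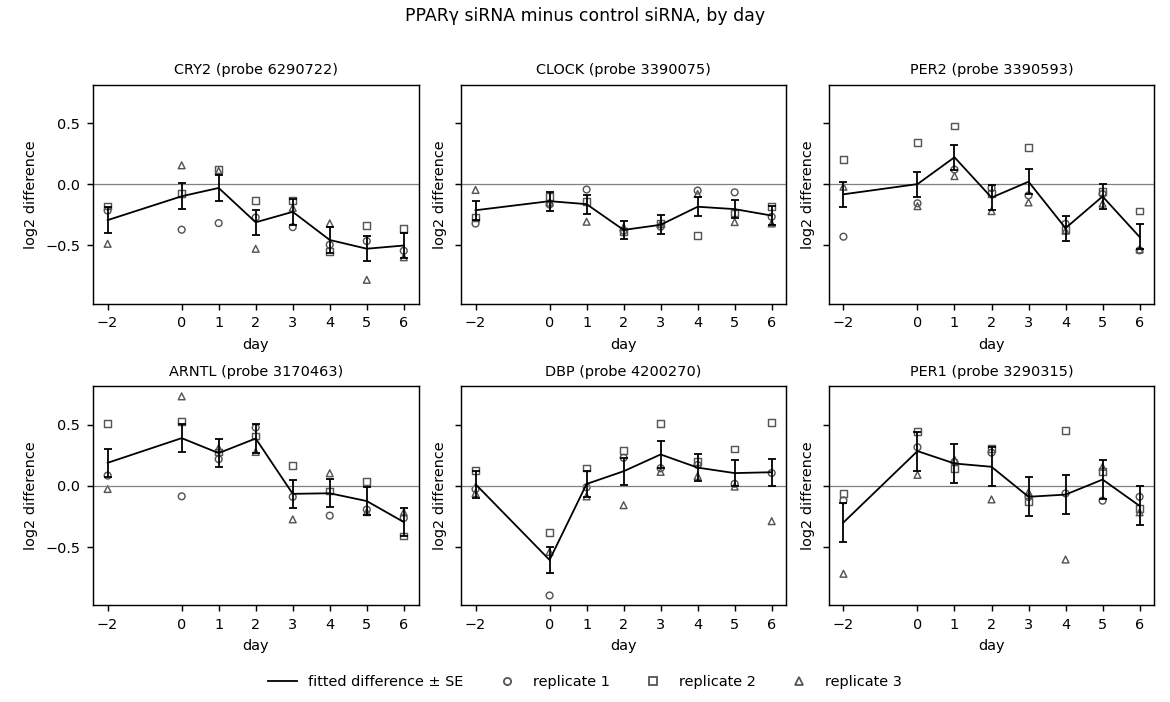
Log2 difference of PPARγ siRNA minus control siRNA by day for 6 clock genes. The line joins the fitted differences with their SE, and open symbols are the pairs of arrays with the same replicate number. CRY2 was lowest on days 4 to 6, CLOCK was below 0 in all 24 pairs, ARNTL went from above 0 on days 0 to 2 to below 0 on day 6, and DBP was low on day 0.

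A siRNA difference that varied among days was called for 0 of the 14 clock probes, beside 7.11% of all probes. At an unadjusted p under 0.05, 4 of the 14 passed, beside 28.6% of all probes. With Benjamini-Hochberg adjustment 3 of the 14 did, beside 21.5% of all probes, so that both counts were near the shares of the array. These 3 were DBP (adjusted p = 0.0011), ARNTL (adjusted p = 0.0039) and PER2 (adjusted p = 0.0106). The difference of ARNTL on days 0, 1 and 2 was 0.39, 0.27 and 0.39, and it was −0.06, −0.12 and −0.29 on days 4, 5 and 6. The mean difference of days 4 to 6 was also set against that of days 0 to 2, a contrast chosen after the values were seen. Here 0 members were called, beside 3.63% of all probes, and 5 passed at an unadjusted p under 0.05, beside 19.7%. With Benjamini-Hochberg adjustment 4 were called, beside 11.9% of all probes, which were ARNTL, PER2, CRY2 and DBP.

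Around the 10 members, other clock genes of the array were read as well. Among further clock transcription factors, BHLHB2, which encodes the E-box repressor DEC1, was called over all days and differed by −0.24 (SE 0.04, adjusted p = 0.0244), and its difference varied among days (adjusted p = 0.000785), its means on day 0 being 11.03 under control siRNA and 10.08 in the KD and those on day 4 being 10.94 and 11.24. RORA (probe 5220215) was called over time with both siRNAs, at 8.17 on day 1 and 9.86 on day 6 under control siRNA and at 8.42 and 9.51 in the KD. TEF (3120397) was called over time in the KD (adjusted p = 1.76e-10), where it was at 11.87 on day 0, and not under control siRNA (12.40 on day 0, adjusted p = 0.139), and a difference between these courses was not called (adjusted p = 0.269).

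Of 22 probes of clock protein modifiers and partners, 16 were above background on at least 1 array and 9 on all. Over all days 0 of the 22 were called, beside 13.1% of all probes. Over days 4 to 6, 1 was called, beside 5.31% of all probes. It was a USP2 probe (1190292, −0.78, adjusted p = 0.00121) above background on 11 control and 6 KD arrays. USP2 is a deubiquitinase that acts on clock proteins. Called over time under control siRNA were 3 of the 22, of CSNK1D, CSNK1E and USP2, beside 23.5% of all probes. In the KD 2 CSNK1D probes were, beside 16.5%. A siRNA difference that varied among days was called for 0 of the 22, beside 7.11% of all probes.

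Of 6 probes of clock outputs, 4 were called over all days, beside 13.1% of all probes, all lower in the PPARγ KD, with a 6-probe median of −0.74 against −0.03 over all probes. CCRN4L, which encodes nocturnin, differed by −1.67 (probe 50438, SE 0.04, adjusted p = 4.45e-28) and −1.53 (probe 5130372). Probe 5130372 was above background on 21 control and 16 KD arrays. Under control siRNA the mean of probe 50438 went from 8.56 on day −2 to 11.47 on day 2, and in the KD it stayed between 8.43 and 8.88 on all days. Its difference varied among days (adjusted p = 1.62e-16), and the change over time was called under control siRNA and not in the KD (adjusted p = 1). ALAS1, the rate-limiting enzyme of haem synthesis in most cells, differed by −0.78 (adjusted p = 2.87e-21) and PBEF1, which encodes the NAD-producing enzyme NAMPT, by −0.71 (SE 0.07, adjusted p = 1.66e-08). The PBEF1 probe was above background on 20 control and 16 KD arrays, and its mean differences in the replicates had an SD of 0.34. WEE1, above background on 6 control and 11 KD arrays, was not called. The KLF10 probe was not well above background on any array, and no direction is given for it.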

How the data were processed

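RNA of 48 samples was hybridised to 1-colour bead arrays. The authors deposited, for each of 24613 probes, the mean bead intensity from BeadStudio 3.3.7 with no normalization, and a fraction for detection, equal to 1 minus its p-value. The methods' rank-invariant normalization and batch correction are not in these intensities. Array medians lay between 105.1 and 141.7. The number of arrays limits the precision.

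From the deposited intensities, background-corrected values were made by normexp with detection p-values and an offset of 16 (limma 3.58.1, R 4.3.3). A rank-invariant scaling used probes from the 50th to the 90th percentile by mean signal, provided that rank moved by under 0.05 of the probes. Log2 values were fitted with 1 mean for each siRNA on each day, blocking on replicate number (lmFit, eBayes), with Bonferroni correction over all probes. Days 4 to 6 were fitted on 18 arrays. The fits were tested on simulated data.

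Same-numbered arrays of both siRNAs deviated together from their condition means (r between 0.631 and 0.928 in all 24 pairs, over 9217 probes above background on at least 24 arrays), so the numbers were taken to pair the samples.

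A gene with several probes is described by the probe above background on most arrays. Values on each array are given for members called between the siRNAs, other clock genes as counts with values for those called, and likeness as the 10 highest r over condition means. The members and all lists were chosen with earlier results of these data known. Alternatives were quantile normalization, no background correction, an offset of 50, a filter on dim probes (above background on at least 3 arrays), no replicate block, a replicate block by day, Benjamini-Hochberg adjustment and leaving out each replicate. Promoters are those of RefSeq. Figures were drawn with matplotlib 3.10.9. Binding data were not analysed here, and part of the results on further clock transcription factors is not reported here.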

Additional observations from a re-analysis of the deposited data

Results flagged for a closer look

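The ARNTL probe was picked out because its PPARγ siRNA effect had opposite signs early and late in every replicate. On days 0 to 2 the mean log2 difference of PPARγ KD minus control was 0.20, 0.40 and 0.44 in replicates 1, 2 and 3, and on days 4 to 6 it was −0.23, −0.14 and −0.11. The late minus early difference was −0.51 (SE 0.09). The contrast was chosen after the values were seen, and it was not called with Bonferroni correction in limma (adjusted p = 0.110). It was called when dim probes were left out before the correction.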

How the results depend on the processing

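Of the counts of clock probes called, that over all days was 2 with each of the alternatives run except 1 with no replicate block, 3 with Benjamini-Hochberg adjustment and 1 to 2 when each replicate was left out in turn. Over days 4 to 6 the count of 1 became 0 with no replicate block, 0 with the replicate block set by day, 4 with Benjamini-Hochberg adjustment and 0 without any of the replicates. On single days the count of 0 became 1 (DBP on day 0) with quantile normalization, 1 (the same probe and day) without dim probes and 12 over the 8 days with Benjamini-Hochberg adjustment. For a difference varying among days it became 1 (DBP) with quantile normalization and 3 with Benjamini-Hochberg adjustment, and for the late minus early contrast 1 (ARNTL) without dim probes and 4 with Benjamini-Hochberg adjustment. Calls over time under control siRNA fell from 7 to between 3 and 4 when a replicate was left out, those in the KD ran from 4 to 7, and the 14 calls over the phases became 31 with Benjamini-Hochberg adjustment and 6 to 13 when a replicate was left out. Of all probes, Benjamini-Hochberg adjustment called 30.9% over all days, 20.8% over days 4 to 6 and 4.28% to 24.2% on single days. It called 21.5% for a difference varying among days, 11.9% for the late minus early contrast and 18.6% to 26.8% over the phases. The cause of the shifts in the counts of clock probes was not tested beyond the smaller number of arrays or tests that an alternative itself brings. Quantile normalization moved the median of all probes by 0.12 on day 2 and 0.11 on day 3 in the siRNA comparison.

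The directions that turned were of uncalled differences. Over all days PER1 became −0.0038 with quantile normalization and NR1D1 −0.0097 with no background correction. When a replicate was left out, the all-day differences ran from −0.058 to 0.088 for PER1, −0.075 to 0.091 for DBP, −0.042 to 0.060 for NR1D1 and −0.035 to 0.16 for NR1D2. Those over days 4 to 6 ran from −0.15 to 0.020 for PER1, −0.18 to 0.018 for PER3, −0.033 to 0.091 for NR1D1 and −0.032 to 0.13 for NR1D2. Control changes from day −2 to day 0 ran from −0.089 to 0.046 for PER2 and −0.13 to 0.077 for CRY2, those from day 0 to day 2 from −0.071 to 0.18 for ARNTL, −0.14 to 0.23 for PER3 and −0.14 to 0.0038 for CRY2, and those from day 2 to day 6 from −0.0041 to 0.085 for NR1D2. Of all values of single probes under an alternative, 333 kept direction and side of the threshold, 25 lost a call, 3 gained one and 17 turned direction. NR1D1 and PER3, above background on 20 and 13 arrays, are limited by their low signal.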
